A study of Vitis vinifera with 8 samples.

Results

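The genes described here were 3 grapevine genes of leaf de-greening and of the photosynthetic membrane, chosen by their identifiers among the 34369 probes that were not controls on a custom grapevine array. They were SGR1 (VIT_02s0025g04660), ATPC1 (VIT_19s0090g00480) and PsbA (VIT_13s0019g02630), each read by 1 probe. The OXNAC33 group held 4 arrays from leaves of in vitro plantlets of cv Sultana that were vacuum infiltrated with Agrobacterium tumefaciens strain C58C1 carrying 35S:VviNAC33, in which the viral 35S promoter drives the transcription factor gene VviNAC33. The Control group held 4 arrays from plantlets infiltrated with the same bacterium carrying the empty pK7WG2 vector with a non-coding sequence. All leaves were labelled as young and were taken 7 days after infiltration, and the labels put the plants at 6 weeks of age. Of 8 plants infiltrated for OXNAC33 and 7 for Control, 4 each were hybridized, and the OXNAC33 plants were those in which quantitative PCR had found the most VviNAC33 transcript. Membership of that group thus rested on the overexpressed gene itself. Expression was transient, and the share of leaf cells that took up a construct is not given in the sources used here.

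Leaves lose their green colour when chlorophyll is broken down together with the proteins that hold it. STAY-GREEN proteins remove magnesium from chlorophyll a, which opens the breakdown pathway in Arabidopsis and rice, and pheophorbide a oxygenase then opens the ring of the pigment. In the thylakoid membrane, D1, the product of PsbA, forms with D2 the reaction centre of photosystem II, and the chloroplast ATP synthase, whose rotating gamma chain is encoded by ATPC1 in Arabidopsis, makes ATP from the proton gradient that electron transport builds up. PsbA is a gene of the plastid genome in land plants, while the probe described here carries an identifier of the annotated grapevine genome. The study mapped its binding data to nuclear chromosomes only and found PsbA there, so this locus lies in the nuclear assembly. Whether the probe reads the transcript of the plastid gene was not tested.

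Scanning took 3 dates and both groups were present on each, with replicates 1 and 2 on scan date 1, replicate 3 on scan date 2 and replicate 4 on scan date 3. Of the 5 slides, only that of replicate 4 carried both groups, so that for replicates 1 to 3 slide and group cannot be told apart. Between 74.1% and 77.0% of the probes were well above background on OXNAC33 arrays and between 73.8% and 84.1% on Control arrays, and the precision of each value was limited by the number of arrays. The leaf markers LHCB3 (2 genes), PSAO and PsbP were well above background on all 8 arrays. They belong to the photosystem genes that the study chose on these arrays, so their detection was no independent check of the tissue. Each was lower in OXNAC33, with log2 differences of -1.76 and -1.80 for LHCB3, -0.42 for PSAO and -0.58 for PsbP. VviNAC33 (VIT_19s0027g00230) checks the labels, and its level, the log2 of the intensity over the array's own 75th percentile, was 1.15, 0.59, -0.13 and -1.14 in OXNAC33 replicates 1 to 4, against 0.14, -0.75, -1.15 and -1.37 in Control replicates 1 to 4. The groups overlapped. The array labelled OXNAC33 replicate 4 lay below Control replicates 1 and 2, and OXNAC33 replicate 3 lay below Control replicate 1. The log2 difference was 0.90 (SE 0.52) and did not pass limma (adjusted p = 0.666, unadjusted p = 0.121). Exact permutation of the array labels, two-sided, gave p = 0.2. OXNAC33 exceeded Control in all 4 pairs of replicate numbers, by 1.003, 1.34, 1.02 and 0.24. The sample titles number the arrays but name no pairs, and over all probes the best match shared the number only for replicate 1. As a block, the replicate number gave limma an unadjusted p of 0.00751 and scan date one of 0.0177, both with an adjusted p = 0.280, and exact permutation within scan dates gave 0.0833, which cannot be lower. Within scan dates OXNAC33 was higher by 1.17, 1.02 and 0.24, and the overall difference was 0.56 without OXNAC33 replicate 1. Which part of the gene the probe reads is not given in the sources used here.

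SGR1 was 6.18 times as high in OXNAC33 leaves as in Control leaves, and all OXNAC33 arrays lay above all Control arrays. ATPC1 was measured on all 8 arrays at low intensity, and its groups overlapped. PsbA was not well above background on any of the 8 arrays, so that no difference was measured for it.

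**Figure D1:**
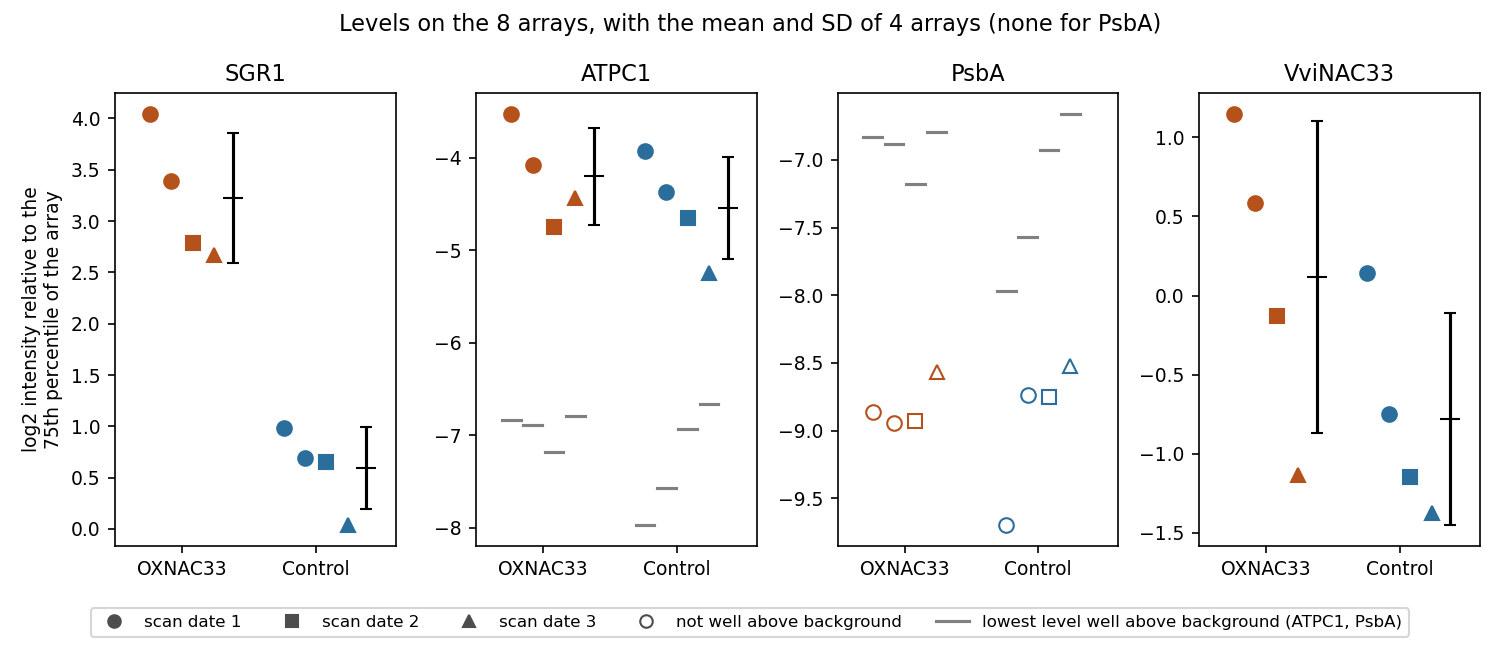
Level of SGR1, ATPC1, PsbA and VviNAC33 on each array (vertical axis, log2 intensity over the array's 75th percentile), with 4 OXNAC33 arrays at the left and 4 Control arrays at the right of each panel. Marker shape gives the scan date, open markers are spots not well above background, black bars are the mean and SD of 4 arrays, and grey lines in the ATPC1 and PsbA panels are the lowest level well above background on that array. SGR1 lies between 2.67 and 4.04 in OXNAC33 and between 0.04 and 0.98 in Control, and every PsbA marker lies under its grey line.

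SGR1 is the grapevine STAY-GREEN gene, and the comparison asked whether its transcript differs when VviNAC33 is overexpressed in leaves. Its level was 4.04, 3.39, 2.78 and 2.67 in OXNAC33 replicates 1 to 4, against 0.98, 0.70, 0.66 and 0.04 in Control replicates 1 to 4. The lowest OXNAC33 array was replicate 4 and the highest Control array was replicate 1, and they lay 1.68 apart, which was more than the whole range of either group. The means were 3.22 ± 0.63 (SD, n = 4) in OXNAC33 and 0.59 ± 0.40 (SD, n = 4) in Control.

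The log2 difference of SGR1 was 2.63 (SE 0.34), with a 95% interval of 1.85 to 3.41, or 3.60 to 10.6 fold. Among the 26579 probes tested, limma gave an unadjusted p of 4.58e-05, and 2 probes (VIT_18s0001g08300 and XLOC_002358) had a lower one. After adjustment over all probes SGR1 did not pass (limma adjusted p = 0.406), and neither did any other probe, so that 0% were called. At an unadjusted p under 0.05 limma called 2064 probes, or 7.77%. With the replicate number as a block this count was 3308, and 2 other probes passed the adjustment (VIT_18s0117g00550 and VIT_18s0117g00590). Without OXNAC33 replicate 1 or 2 the unadjusted count was 1089 or 1081, and without replicate 2 the adjustment was passed by VIT_14s0128g00540 and VIT_14s0128g00570. These 6 probes were named after their values were seen. SGR1 belonged to the 2.42% of probes that were at least 1.5 fold higher at that threshold and to the 2.35% in which every OXNAC33 array exceeded every Control array. Only 58 probes, or 0.218%, had a larger log2 difference in this direction. Exact permutation of the 8 labels gave a two-sided p of 0.0286, and no smaller p can be had from groups of 4. The study named SGR1 among genes that it picked on these same arrays, so this difference is not independent evidence of its direction. In a bulk leaf sample, more RNA per cell and more cells that express a gene cannot be told apart.

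On each scan date SGR1 was higher in OXNAC33. The difference was 2.88 on scan date 1, 2.13 on scan date 2 and 2.63 on scan date 3. Taken by replicate number, the 4 OXNAC33 arrays exceeded their Control counterparts by 3.06, 2.70, 2.13 and 2.63. Permuting labels within scan dates gave an exact two-sided p of 0.0833, which is the smallest that this arrangement allows. With scan date as a block the unadjusted p was 1.27e-05, and the gene still missed the threshold (limma adjusted p = 0.116).

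**Figure D2:**
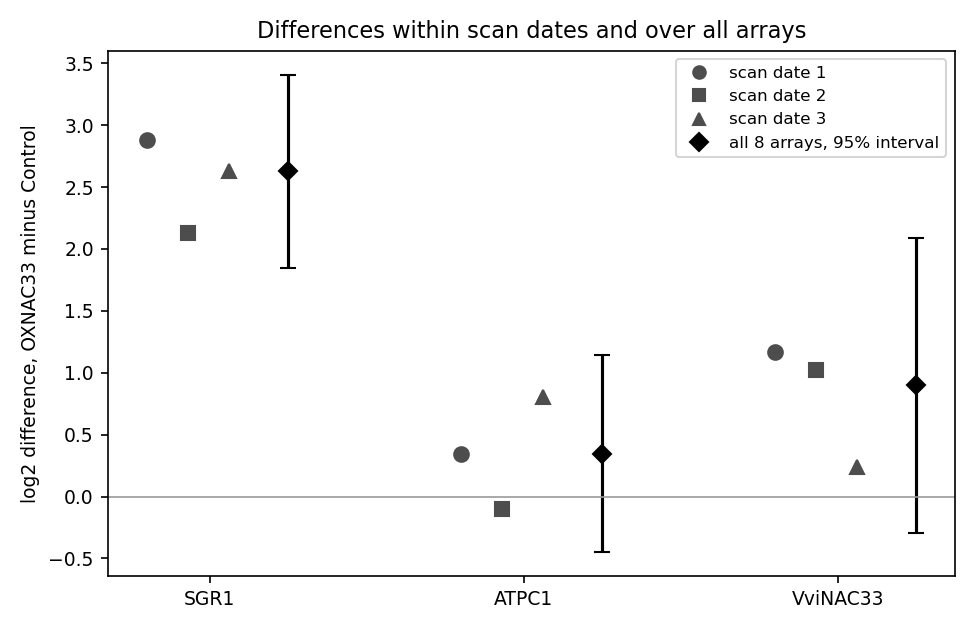
Log2 difference, OXNAC33 minus Control, for SGR1, ATPC1 and VviNAC33 (vertical axis), within each of the 3 scan dates (grey markers) and over all 8 arrays (black diamonds with the 95% interval). SGR1 lies at 2.13 or more on every date, ATPC1 lies on both sides of 0, and VviNAC33 is lowest on scan date 3 at 0.24.

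The SGR1 spot was bright on every array. Its processed intensity before scaling was 25226, 14911, 12003 and 11069 on OXNAC33 arrays, against 5471, 3646, 2578 and 1417 on Control arrays, so the groups were also apart without scaling. The spot was between 494 and 941 times as bright as its local background in OXNAC33 and between 59.5 and 211 times as bright in Control. No SGR1 spot was outlying, and the scanner software put its error near 10% of the intensity on each array.

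**Figure D3:**
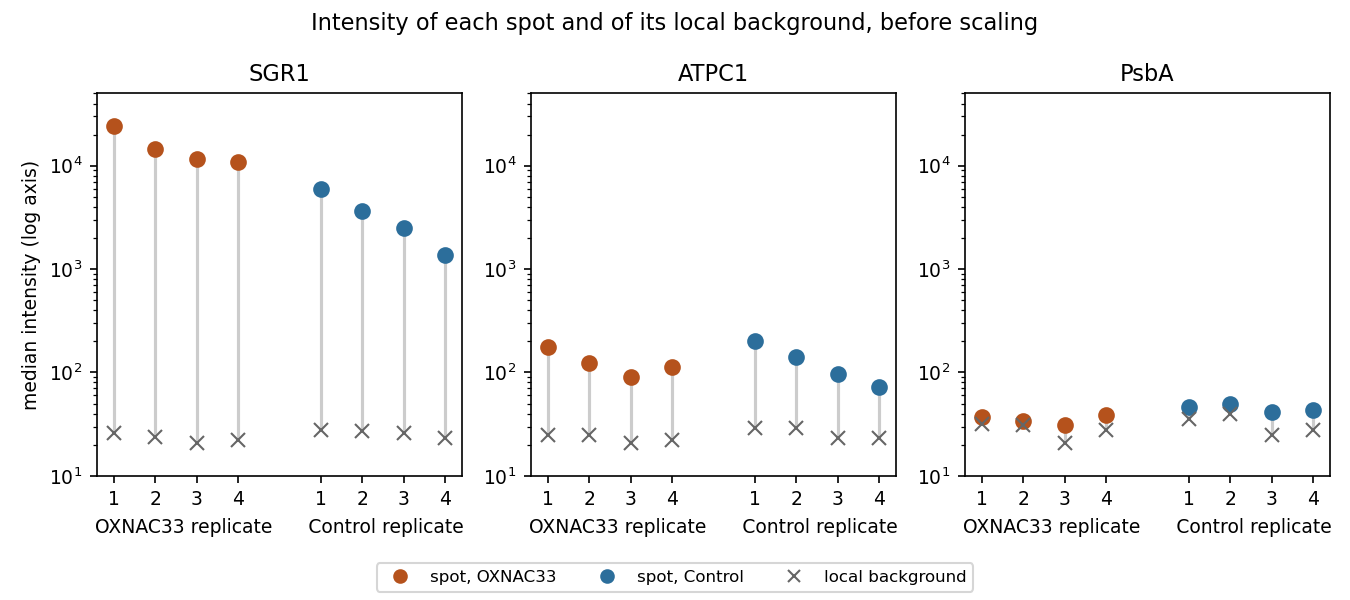
Median intensity of the spots of SGR1, ATPC1 and PsbA (vertical axis, logarithmic, before scaling) on the 4 OXNAC33 arrays and then the 4 Control arrays (horizontal axis, replicate number), with the local background of the same spot as a cross. SGR1 spots stand far above the crosses, ATPC1 spots are 3.17 to 7.10 times their background, and PsbA spots are at most 1.64 times theirs.

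ATPC1, for the gamma chain that turns inside the chloroplast ATP synthase, had levels of -3.52, -4.07, -4.75 and -4.44 in OXNAC33 replicates 1 to 4, against -3.92, -4.36, -4.65 and -5.24 in Control replicates 1 to 4. The highest array was OXNAC33 replicate 1 and the lowest was Control replicate 4, and between them the groups were mixed. Means were -4.20 ± 0.53 (SD, n = 4) in OXNAC33 and -4.54 ± 0.55 (SD, n = 4) in Control. The log2 difference of 0.35 (SE 0.35, 95% interval -0.45 to 1.14) was as large as its error and did not pass (limma adjusted p = 0.782, unadjusted p = 0.344). Exact permutation gave a two-sided p of 0.429. The interval reached from 0.734 to 2.21 fold, so that a moderate difference in either direction was not detectable with these arrays.

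The ATPC1 difference did not have 1 direction on all scan dates. Scan dates 1 and 3 had OXNAC33 higher by 0.34 and 0.80, and scan date 2 had a difference of -0.10. With normexp background correction the difference was 0.02. That setting subtracted the local background, modelled what remained and added an offset of 50 to every spot. The part of the offset in this value was not tested. It was 0.12 without OXNAC33 replicate 1, 0.12 without Control replicate 4 and 0.55 without Control replicate 1, and leaving out OXNAC33 replicate 3 gave 0.53. The ATPC1 spot was dim. Its processed intensity was 133, 84.4, 65.0 and 80.3 on OXNAC33 arrays, against 182, 109, 65.4 and 36.5 on Control arrays, where the lowest intensity well above background was between 12.0 and 15.7 in OXNAC33 and between 11.0 and 13.6 in Control. Before scaling, therefore, OXNAC33 was lower in replicates 1 and 2 and higher in replicate 4. In replicate 3 the intensities differed by less than their error, which was 11.2% in OXNAC33 and 11.3% in Control. The 75th percentile that scaling divides by was 1531, 1421, 1744 and 1742 on OXNAC33 arrays, against 2768, 2250, 1637 and 1379 on Control arrays.

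PsbA was annotated as the D1 reaction centre protein of photosystem II. Its spot was well above background on 0 of 4 OXNAC33 arrays and on 0 of 4 Control arrays. Its processed intensity was 3.29, 2.88, 3.58 and 4.60 in OXNAC33, against 3.33, 5.27, 3.79 and 3.75 in Control. Every one of these values was below the lowest intensity that was well above background on its own array. The scanner software gave an error of 99.5% to 99.6% of the PsbA intensity on OXNAC33 arrays and of 65.9% to 100.02% on Control arrays, and the spot was at most 1.48 times its local background in OXNAC33 and at most 1.64 times in Control. The level on the relative scale was between -8.95 and -8.57 in OXNAC33, where the limit of detection lay between -7.18 and -6.79, and between -9.70 and -8.52 in Control, where that limit lay between -7.97 and -6.66. These levels have no order, and PsbA did not enter the test.

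A second probe annotated as photosystem II protein D1 (VIT_02s0012g01950) was well above background on all 8 arrays. It had levels of -5.15, -5.11, -5.64 and -4.84 in OXNAC33, against -5.26, -5.33, -4.83 and -5.02 in Control, and the groups overlapped. The groups differed by -0.08 on the log2 scale (SE 0.21, limma adjusted p = 0.930). Whether both probes see the same transcript was not tested, since the probe sequences are not used here.

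The level of SGR1 was set beside that of VviNAC33 array by array. In OXNAC33, SGR1 of 4.04, 3.39, 2.78 and 2.67 stood beside VviNAC33 of 1.15, 0.59, -0.13 and -1.14. In Control, SGR1 of 0.98, 0.70, 0.66 and 0.04 stood beside VviNAC33 of 0.14, -0.75, -1.15 and -1.37. Within each group the arrays therefore ran in the same order for both genes. This was so for 1.3% of the probes. No correlation of the levels over all 8 arrays is tested, because the SGR1 groups did not overlap, and 4 arrays are too few for one in a single group.

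Arrays of both groups with like VviNAC33 levels differed in SGR1. In the array labelled OXNAC33 replicate 4 the VviNAC33 level of -1.14 was close to the -1.15 of Control replicate 3, while its SGR1 level was 2.67, against 0.66 in that Control array. A similar contrast held between OXNAC33 replicate 3 and Control replicate 1, whose VviNAC33 levels were -0.13 and 0.14 and whose SGR1 levels were 2.78 and 0.98. Both pairs were picked from the levels, and the arrays of neither pair shared a scan date or a slide. In a limma model with group and VviNAC33 level as terms, the SGR1 difference between the groups was 2.12 (SE 0.22, adjusted p = 0.289), and it was 2.26 (SE 0.35, adjusted p = 0.855) with scan date as a further term. The construct carries VviNAC33 and the OXNAC33 plants were selected on it. Neither the pairs nor the model can therefore show whether SGR1 differs apart from VviNAC33.

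Within the groups, the same model put SGR1 higher by 0.56 (SE 0.13) for each log2 unit of VviNAC33 (limma adjusted p = 0.0718, unadjusted p = 0.00299). A slope at an unadjusted p under 0.05 was common, at 25.1% of the probes, so that having one did not set SGR1 apart. Scan date moved with both genes, as the arrays of scan date 1 were the highest of their group. With scan date in the model the slope was 0.41 (SE 0.31, unadjusted p = 0.246), and 7.46% of the probes passed at an unadjusted p under 0.05. The share of probes well above background also moved with SGR1 in OXNAC33, at 77.0%, 76.5%, 74.8% and 74.1% for replicates 1 to 4, and in Control replicates 1 and 2, the highest for SGR1, it was 84.0% and 84.1%, against 73.8% in both replicates 3 and 4. Its part in the slope was not tested.

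ATPC1 had a slope of 0.52 (SE 0.16, unadjusted p = 0.0123) on VviNAC33 within the groups. It was 0.20 (SE 0.35, unadjusted p = 0.588) with scan date in the model. With VviNAC33 as a term the ATPC1 difference between the groups was -0.12 (SE 0.27, limma adjusted p = 0.881), the opposite sign of the difference without it, and with scan date as a further term it was 0.17 (SE 0.39, limma adjusted p = 0.938).

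**Figure D4:**
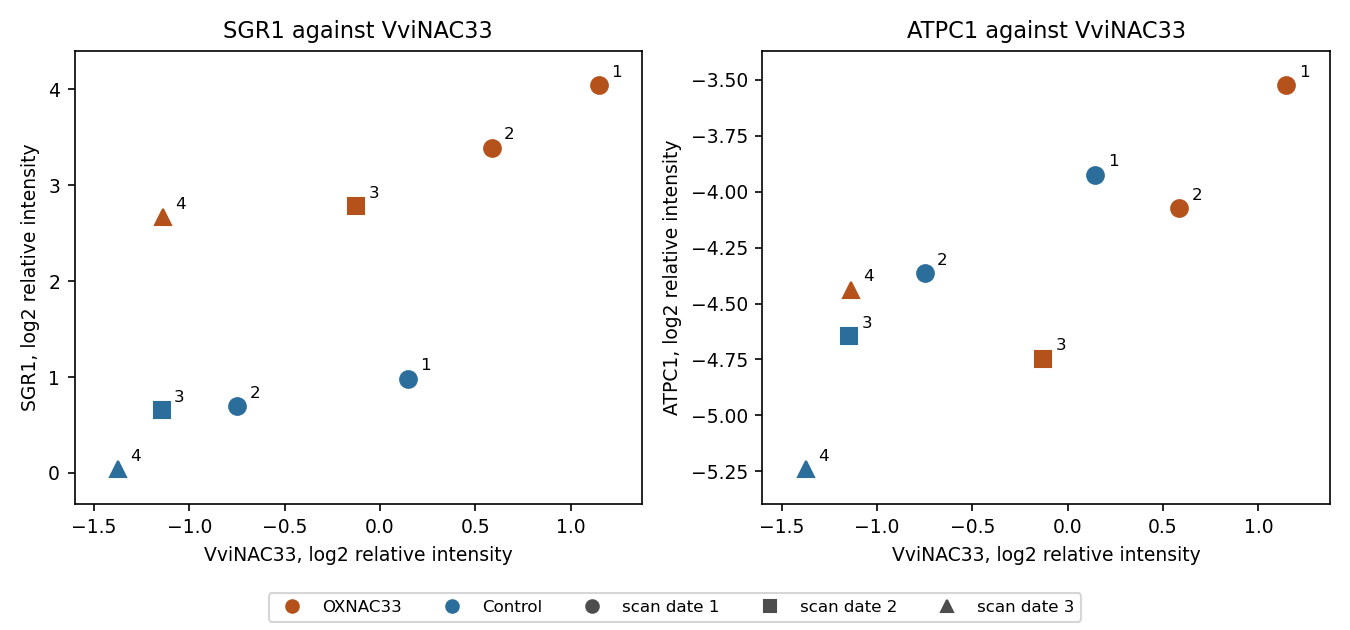
Level of SGR1 (left panel) and of ATPC1 (right panel) against that of VviNAC33 on the same array (both axes, log2 intensity over the array's 75th percentile), with OXNAC33 arrays in orange and Control arrays in blue, the shape giving the scan date and the label the replicate number. The SGR1 points form separate bands for the groups, with OXNAC33 replicate 4 at 2.67 above Control replicate 3 at 0.66 for a VviNAC33 level near -1.14, and the ATPC1 points of both groups are mixed.

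Probes whose levels ran most like those of SGR1 over the 8 arrays were found by Pearson correlation, which here counts the difference between the groups as well as the variation within them. The closest 5 had r between 0.960 and 0.977. They were annotated as FAR1-related sequence 9 (VIT_03s0038g04150), with a log2 difference of 0.34, high-level expression of sugar-inducible like 1 (VIT_08s0058g01300), with 0.26, metallothionein (VIT_06s0004g04650), a metal-binding protein, with 1.27, amine oxidase LDL2 (VIT_19s0014g03430), with 0.47, and chloroplast heat shock protein 26a (VIT_16s0098g01060), a chaperone, with 1.26. Each of these differences was smaller than the 2.63 of SGR1. After the group means were taken out, the closest 5 had r between 0.980 and 0.985 and were VIT_10s0116g01760, XLOC_006049, VIT_07s0104g01630, XLOC_005712 and VIT_05s0051g00130, for which no name was found in the tables used. On this second measure ATPC1 stood at rank 140 (r = 0.93) and VviNAC33 at rank 365 (r = 0.90), so that SGR1 and ATPC1 varied together within the groups while only SGR1 had groups that did not overlap. All 8 arrays share their scan date with at least 1 other array, and r is given as a description. For ATPC1 the closest over the 8 arrays were VIT_00s0558g00020 (r = 0.984), VIT_05s0020g04180 (r = 0.971) and the transcription factor S-II gene VIT_08s0058g01410 (r = 0.968), and after the group means were taken out they were VIT_00s0558g00020, VIT_00s1348g00010 and VIT_08s0056g00440, with r between 0.980 and 0.985.

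Chlorophyll metabolism was followed in 8 other genes named in the study's tables of binding, co-expression or stable lines, not in the whole pathway. Of these, 7 belonged to tetrapyrrole and chlorophyll synthesis and 1 to breakdown, all were tested, and 0 passed after adjustment. At an unadjusted p under 0.05, 1 was higher and 1 was lower, where 3.95% of all probes were higher and 3.82% lower. The median log2 difference was -0.19, against 0.04 over all probes, and it was -0.05, -0.06 and -0.04 without OXNAC33 replicate 1, OXNAC33 replicate 2 and Control replicate 3 in turn. Within scan dates 1 to 3 the median was -0.31, -0.11 and -0.12. The higher gene was pheophorbide a oxygenase (VIT_06s0061g00790), which acts after STAY-GREEN in chlorophyll breakdown. Its level was 2.08, 1.54, 1.51 and 0.91 in OXNAC33, against 0.96, 0.84, 0.95 and 0.54 in Control, and the groups overlapped only because OXNAC33 replicate 4 lay below Control replicates 1 and 3. The groups differed by 0.69 on the log2 scale (SE 0.25, limma adjusted p = 0.636, unadjusted p = 0.0250), and within scan dates the difference was 0.91, 0.56 and 0.37. The lower gene was magnesium-protoporphyrin O-methyltransferase (VIT_17s0000g00280) of chlorophyll synthesis, which differed by -0.57 on the log2 scale (SE 0.22, unadjusted p = 0.0333, limma adjusted p = 0.636). Its levels were 2.64, 2.89, 3.36 and 3.46 in OXNAC33, against 3.63, 3.88, 3.42 and 3.69 in Control, and the difference was -0.99 on scan date 1, against -0.06 and -0.22 on the others. Uroporphyrinogen decarboxylase (VIT_13s0067g02450), an earlier enzyme of tetrapyrrole synthesis, differed by -0.29 (SE 0.17).

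Around ATPC1, 9 genes annotated to ATP synthases were tested, and 0 were called at either threshold. Their log2 differences lay between -0.35 and 0.28, with a median of -0.06. Of the chloroplast enzyme, the CF1 beta subunit (VIT_00s0332g00060), which carries the catalytic sites, differed by 0.28 (SE 0.20) and the CF1 epsilon subunit (VIT_12s0055g00540), which regulates the enzyme, by 0.22 (SE 0.48). The beta probe was dim, with a mean level of -5.11 in OXNAC33 and -5.39 in Control. Its difference was 0.56, 0.42 and -0.41 on scan dates 1 to 3. The epsilon probe had levels of 2.96, 2.90, 0.92 and 1.45 in OXNAC33, against 1.67, 2.29, 1.502 and 1.90 in Control, and so OXNAC33 held both the highest and the lowest arrays. The gamma chain of the mitochondrial enzyme (VIT_17s0000g07300), the counterpart of ATPC1 in the other organelle, differed by 0.05 (SE 0.21), with levels between 1.91 and 2.45 in OXNAC33 and between 1.74 and 2.41 in Control. The lowest unadjusted p of this list was 0.0795, for a mitochondrial beta chain (VIT_17s0000g02900) with a difference of -0.35 (SE 0.18), and a second mitochondrial beta chain (VIT_01s0011g04490) differed by -0.24 (SE 0.23).

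Around PsbA, 19 genes of the kind that plastid genomes encode were looked up, of which 2 are the CF1 subunits just described. The detection rule of at least 4 arrays was met by 16 of them, which were tested. PsbD, for the D2 partner of D1, and 1 gene annotated as the Rubisco large subunit (VIT_14s0060g01350) were like PsbA in being detected on 0 of the 8 arrays, and the photosystem I assembly gene Ycf3 was detected on 1 Control array. Low detection was thus not general to the list, since 15 of its genes were well above background on all 8 arrays. Of the 16 tested, 0 were called at either threshold, and the median log2 difference was 0.07 with a range of -0.79 to 0.32. A Rubisco large chain gene (VIT_07s0005g03530), for the carbon-fixing enzyme, was the lowest at -0.79 (SE 0.40, limma adjusted p = 0.648), and PsbM (VIT_18s0001g12070), a small subunit of photosystem II, differed by 0.24 (SE 0.19). The median changed sign between scan dates, at 0.42, -0.15 and -0.28.

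Of 12 genes for assembly and acclimation of the thylakoid membrane, all tested, 2 had a positive and 10 a negative log2 difference, where 54.8% of all probes were positive. The median was -0.30, and it was -0.11 without OXNAC33 replicate 1. Relative to each gene's Control mean, the list median was -0.88, -0.54, 0.01 and 0.03 in OXNAC33 replicates 1 to 4. In Control it was -0.31, -0.24, 0.36 and 0.34. The SD between arrays of a group was 0.41, larger than the difference of -0.30 in size, and it includes variation between scan dates. Within scan dates 1 to 3 the median difference was -0.41, -0.32 and -0.24. After adjustment 0 passed, and 1 was lower at an unadjusted p under 0.05, where 3.82% of all probes were. That gene was a ferredoxin-related gene (VIT_04s0008g01910), named for the electron carrier after photosystem I. Its levels were -2.90, -3.01, -2.78 and -0.88 in OXNAC33, against -0.80, -0.31, -1.38 and -0.45 in Control, so that 3 OXNAC33 arrays were low and replicate 4 lay among the Control arrays. The groups differed by -1.66 on the log2 scale (SE 0.49, limma adjusted p = 0.636, unadjusted p = 0.00922). LHCA5 (VIT_18s0001g10550), a minor antenna protein of photosystem I, differed by -0.70 (SE 0.49) and ferredoxin-thioredoxin reductase (VIT_10s0071g01160), which passes electrons to thioredoxins, by -0.35 (SE 0.26).

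The study chose 5 further photosystem genes on these same arrays, so their counts are no independent evidence of direction. At an unadjusted p under 0.05, 4 were lower and 0 higher, where 3.82% of all probes were lower and 3.95% higher. After adjustment 0 passed, and the median was -0.58. The antenna gene LHCB3 (VIT_00s0181g00180) had levels of 0.55, 1.53, 2.60 and 2.73 in OXNAC33, against 2.77, 3.73, 3.78 and 4.17 in Control, and the groups did not overlap. Its log2 difference was -1.76 (SE 0.52, limma adjusted p = 0.636). A second LHCB3 gene (VIT_00s0181g00200) differed by -1.80 (SE 0.54) with nearly the same levels, and whether each probe tells these copies apart was not tested. PsbP (VIT_13s0019g00260), of the oxygen-evolving complex, differed by -0.58 (SE 0.19). In both groups replicate 1 was the array with the most SGR1 and the least LHCB3.

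Genes that carry senescence in their annotation showed no common direction. Of 16 such genes 13 were tested and 0 passed after adjustment. At an unadjusted p under 0.05, 1 was lower and 0 were higher, where 3.82% of all probes were lower and 3.95% higher. The median was 0.02, against 0.04 over all probes. The lower one was a nodulin gene annotated as senescence-associated (VIT_03s0063g01150), with levels of -1.56, -0.86, 0.19 and -1.004 in OXNAC33, against 0.54, -0.05, 0.06 and 0.99 in Control. Its log2 difference was -1.19 (SE 0.39, limma adjusted p = 0.636), and on scan date 2 OXNAC33 was higher by 0.13. A leaf senescence protein gene (VIT_07s0031g02320) differed by -0.44 (SE 0.22) and a senescence-associated protein gene (VIT_00s0357g00010) by 0.40 (SE 0.28). In size, the log2 difference of SGR1 was larger than that of ATPC1 and of every tested gene of these 6 lists. The study had singled out SGR1 on these same arrays for its strong rise, so this rank is no independent result.

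**Figure D5:**
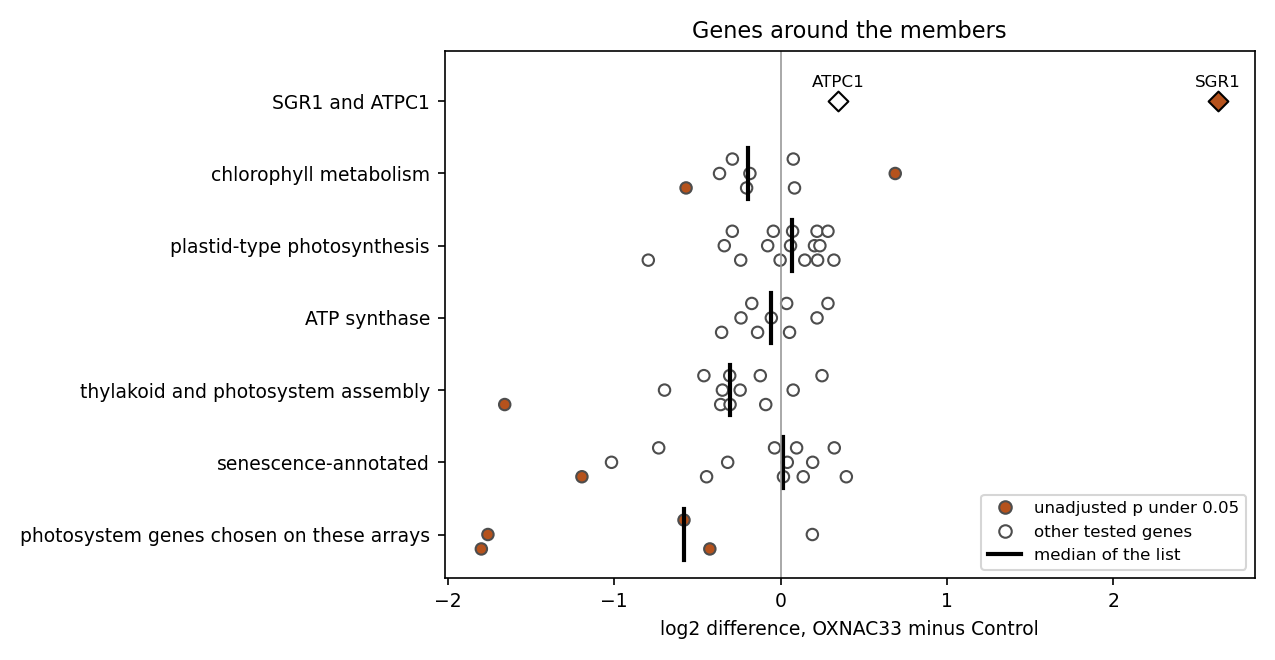
Log2 difference, OXNAC33 minus Control (horizontal axis), of SGR1 and ATPC1 (diamonds, top row) and of each tested gene of 6 lists (circles), filled at an unadjusted p under 0.05, with the median of each list as a black line. SGR1 at 2.63, which the study had singled out on these same arrays, lies beyond every listed gene. The nearest in size is the LHCB3 gene at -1.80, and the list medians lie between -0.58 and 0.07.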

How the data were processed

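Transcript levels were measured in leaves on 8 arrays read with 1 dye (Cy3). Per the file headers, the authors ran Agilent Feature Extraction 10.5.1.1, which subtracts background and gives each spot a processed intensity on a linear scale, and flags spots as detected above background, as outliers or as saturated. The authors also deposited linear intensity values for 71.7% of the 34369 probes (24631), equal to the processed intensity times 1 factor per array, and SGR1 and ATPC1 are in it. Statistical methods upstream of that table are not given in the sources used here.

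Levels were log2 of the processed intensity minus that of the array's 75th percentile. The 140 outlying spots were left out, 0 spots were saturated, and no pseudocount was used. The test took 26579 probes, those detected above background on 4 or more arrays, and used limma (3.58.1, R 4.3.3) with no term but group, two-sided, with Benjamini-Hochberg adjustment over all probes. The script was tested on simulated data. Single genes were also compared by exact permutation of array labels (scipy 1.17.1). Groups and replicate numbers came from the sample titles. Per the methods, the OXNAC33 arrays are of separate plants.

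Replicate numbers were checked as pairs by correlating the deviations of arrays from their group means across probes, which gave 0.490, 0.253, 0.496 and 0.102 for replicates 1 to 4. All exceeded 0.1, so the numbers were taken as pairs, on the data alone, and the block was run as an alternative. The Control array that best matched an OXNAC33 array, however, had its number only for replicate 1. Arrays of the same number also shared a scan date, so these correlations cannot tell a pairing from a shared scan date. Other alternatives were background correction, normalization, filters, scan date, slide, array weights, the methods' t-test, VviNAC33 as a term and each array left out.

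The genes and lists were chosen with earlier results of these data known. Lists hold genes that the study's tables of binding, co-expression and stable lines name for each function, and 1 list holds photosystem genes it picked on these arrays. Named are the 3 genes and VviNAC33, up to 3 members of each list with the lowest unadjusted p, selected counterparts of the 3 genes, and probes with the most similar levels. No identifier matched the reference table of symbols, and sequences and coordinates were not used here.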

Additional observations from a re-analysis of the deposited data

Results flagged for a closer look

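In 128 groups of 4 arrays (SGR1, ATPC1, VviNAC33 and the listed genes, by group), 1 array was looked for whose gap to the nearest other was, as a share of the whole range of its group, above the critical value of Dixon's test. Chance gives about 1 in 20 such groups, or 6.4, and 6 were found, all among listed genes and none in SGR1, ATPC1 or VviNAC33. The ferredoxin-related gene (VIT_04s0008g01910) had a gap of 0.894 in OXNAC33, where replicate 4 stood at -0.88 and the others between -3.01 and -2.78. A Rubisco large chain gene (VIT_10s0003g05690) had 0.849 in OXNAC33, where replicate 3 was the highest, and a mitochondrial ATP synthase beta chain gene (VIT_17s0000g02900) had 0.858, also with replicate 3 the highest. In Control, the Rubisco large chain gene VIT_14s0036g00540 had 0.873, with replicate 2 the highest. The photosystem I apoprotein A1 gene VIT_11s0037g01170 had 0.872 and the NADH-plastoquinone oxidoreductase subunit I gene VIT_08s0056g01050 had 0.835, both with Control replicate 1 the lowest. Of these, 4 were named here after their values were seen.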

How the results depend on the processing

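SGR1 was higher in OXNAC33 under all 21 alternatives, by 2.12 to 2.81 on the log2 scale, and passed the adjusted threshold in none of them (limma adjusted p between 0.0660 and 0.998, the lowest with the replicate block). The filters, the scan date and replicate blocks and the t-test could not move this estimate, only its error. The authors' deposited values, the same intensities scaled per array, gave 2.63. With 1 array left out SGR1 lay between 2.35 and 2.81. ATPC1 passed in none of its 21, with 0.12 to 0.55 when 1 array was left out, and 0.20 without both replicate 4 arrays. It reversed to -0.12 with VviNAC33 as a second term, and was 0.17 with scan date as a further term. VviNAC33 itself lay between 0.56 and 1.32 with 1 array left out, and passed in none of 19. The SGR1 slope on VviNAC33 lay between 0.45 and 0.68 with 1 array left out. Under the replicate block the count of adjusted calls was 2 and that of unadjusted calls 3308, against 0 and 2064 without it, SGR1 was not among the adjusted calls, and the block moved no adjusted call of SGR1, ATPC1 or VviNAC33. For VviNAC33 the unadjusted p was 0.00751 with it, against 0.121. Leaving out 1 array gave between 0 and 2 adjusted and between 1081 and 3001 unadjusted calls, with 2 and 1081 without OXNAC33 replicate 2 and 1089 unadjusted calls without OXNAC33 replicate 1. Unadjusted calls were 1194 with normexp, 4005 with scan date as a block and 6556 with array weights. The methods' t-test gave 2013 unadjusted and 0 adjusted calls. For the plastid-type list the median was -0.13 with slide as a random block, and for the senescence list it was -0.16 with that block and -0.14 with normexp. With 1 array left out, the medians lay between -0.04 and 0.18 for the plastid-type list, -0.07 and 0.06 for the senescence list, -0.12 and -0.002 for ATP synthase, -0.28 and -0.04 for chlorophyll metabolism, -0.44 and -0.11 for thylakoid assembly and -0.73 and -0.48 for the photosystem genes. The cause of these changes was not tested. PsbA entered a test only without the filter on dim probes and was not called (limma adjusted p = 0.930, and 0.987 with normexp). The additions chosen after seeing the data were scan date beside VviNAC33, both replicate 4 arrays left out and the slope without each array.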
